A study of Mus musculus with 42 samples.

Results

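The extraembryonic ectoderm was set against the epiblast of the mouse embryo at embryonic day 6.5 (E6.5), gene by gene. Of 24083 genes with values, 6500 reached a total of at least 5 FPKM (fragments per kilobase of transcript, scaled to library size) in one of these tissues. The 6200 of them that were above 0 in both tissues were compared. A total is the FPKM of the maternal plus the paternal allele.

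Both tissues lie side by side in the egg cylinder, the extraembryonic ectoderm above the cup-shaped epiblast, and the visceral endoderm wraps around them. The extraembryonic ectoderm descends from the trophectoderm of the blastocyst, holds trophoblast progenitors and gives rise to the chorion and much of the placenta. The epiblast descends from the inner cell mass and gives rise to the fetus. The pair keep each other going by secreted signals: Fgf4 from the epiblast maintains the trophoblast progenitors through Fgfr2, Nodal from the epiblast acts on both tissues, and the extraembryonic ectoderm returns Bmp4 and the proteases that cut the Nodal precursor.

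All E6.5 tissues came from wild-type female embryos of C57BL/6N mothers and PWK/PhJ fathers, so each transcript that carries a strain difference can be assigned to the maternal or the paternal allele. RNA was measured with Smart-seq2, which copies polyadenylated RNA and keeps no strand. The extraembryonic ectoderm values were the authors' pool of 2 samples, the epiblast values came from 1 sample and the visceral endoderm values were a pool of 3 samples. E3.5 trophectoderm (a pool of 3 samples) and E3.5 inner cell mass (a pool of 2 samples), from the same cross, were set beside them. A further table held X-linked genes in the extraembryonic ectoderm of 13 female E7.5 embryos named EedmNull, whose Eed fl/fl; Gdf9-Cre mothers lack the Polycomb gene Eed in the oocyte, with PWK/PhJ fathers. The cross ran in 1 direction, so the strain of an allele and the parent it came from cannot be told apart. With 1 column per tissue there is no spread between samples and no test, and every difference here is described by its size.

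Size was given as the log2 ratio of extraembryonic ectoderm to epiblast after adding 1 FPKM to both totals, which understates the difference of low genes. A gene was called higher or lower when this ratio reached 2-fold. At that size 1003 of the 6200 genes (16.2%) were higher in extraembryonic ectoderm and 405 (6.53%) were lower. At 4-fold the counts were 293 and 121, and at 8-fold they were 107 and 34. The median log2 ratio was 0.25, so the split leaned towards extraembryonic ectoderm as a whole. With the ratios centred on that median, 690 genes were higher and 558 lower, and the share of higher genes among those called was 55.3% in place of 71.2%. In bulk tissue, fewer cells of a type and less RNA per cell cannot be told apart.

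**Figure D1:**
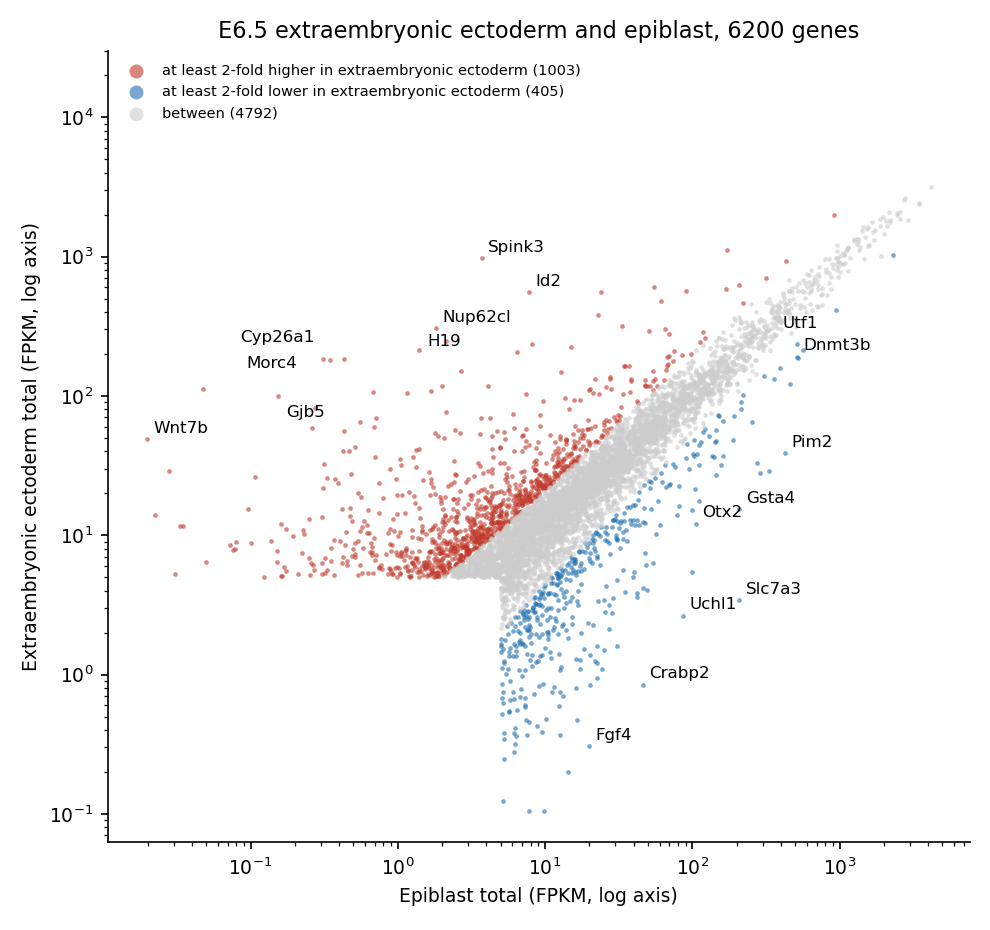
Total FPKM of the 6200 genes in extraembryonic ectoderm (vertical log axis) against epiblast (horizontal log axis), 1 point per gene. The 1003 genes at least 2-fold higher in extraembryonic ectoderm lie above the grey band and the 405 lower ones below it, and the empty lower left corner is the 5 FPKM minimum.

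The minimum itself shapes these counts. It was reached in extraembryonic ectoderm alone by 1071 genes and in epiblast alone by 409, and such genes could lean little towards the other tissue. Among the 4720 genes at 5 FPKM or more in both tissues, 368 were higher and 173 lower. Just inside the minimum stood Cd97 (5.0 FPKM in extraembryonic ectoderm and 0.123 FPKM in epiblast), Sepsecs (5.0 and 2.55 FPKM) and Repin1 (1.46 and 5.0 FPKM). Just outside, short of 5 FPKM by less than 0.01, stood Bdp1, Cep68 and 2310035C23Rik, with 4.19, 4.53 and 3.55 FPKM in epiblast.

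Genes listed at 0 need separate care. Of the 6500 genes that reached 5 FPKM, 299 were listed at 0 in epiblast and 1, the cytokine gene Il10, at 0 in extraembryonic ectoderm. A gene can be listed at 0 when it is silent or when no read tells its alleles apart. Among the 299 were 16 genes of ribosomal proteins, which every cell uses: Rpl8 had 1416 FPKM in extraembryonic ectoderm and Rps23 had 1615 FPKM. The cyclophilin gene Ppia, with 3382 FPKM in extraembryonic ectoderm, was listed at 0 in epiblast as well. In visceral endoderm, trophectoderm and inner cell mass 182 of the 299 were listed at 0 too. All 299 had values in extraembryonic ectoderm, from the same cross, and why they were listed at 0 in epiblast was not tested. Whether the columns were handled alike is not known, which limits the comparison. No ratio is given against a 0, and 0 is not read as absence. The files held no counts, so depth was unknown. Maternal and paternal values were equal, to within a relative difference of 0.0001, for 2.47% of 13043 genes in extraembryonic ectoderm and for 5.95% of 9992 genes in epiblast.

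The 15 genes with the largest positive ratios had varied roles, and 3 of them were on the X chromosome. Gjb5, a connexin gene whose product builds gap junctions in placental trophoblast, had 99.5 FPKM in extraembryonic ectoderm and 0.154 FPKM in epiblast (log2 ratio 6.44). It was near absent from the visceral endoderm, at 0.281 FPKM. Wnt7b, a Wnt ligand needed for the fusion of chorion and allantois, had 49.1 FPKM in extraembryonic ectoderm and 0.0198 FPKM in epiblast. Htra1, a secreted serine protease, had 106 and 0.68 FPKM, and Tinagl1, a matrix protein, had 113 and 0.0479 FPKM. Id2, an inhibitor of bHLH transcription factors, had 553 FPKM in extraembryonic ectoderm and 7.77 FPKM in epiblast. Id2 was the most abundant of the transcriptional regulators listed below. Perp, a desmosome protein, had 105 and 1.16 FPKM.

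The other genes at the top included 3 from the X chromosome and 4 with more transcript in the visceral endoderm. Morc4, a chromatin ATPase gene, had 182 FPKM in extraembryonic ectoderm and 0.345 FPKM in epiblast, and its X-linked neighbour Nup62cl had 305 and 1.81 FPKM. Trap1a, a tumour antigen gene of the same X-linked stretch, had 249 and 2.13 FPKM. The 4 genes with more in visceral endoderm were Spink3, Cyp26a1, H19 and Krt19. Spink3, a secreted trypsin inhibitor and a visceral endoderm marker, had the largest ratio (7.69), with 971 FPKM in extraembryonic ectoderm and 3.71 FPKM in epiblast, beside 9863 FPKM in visceral endoderm. Cyp26a1, the enzyme that clears retinoic acid, had 185 and 0.311 FPKM, beside 420 FPKM in visceral endoderm. H19, a maternally expressed noncoding RNA, had 213 and 1.38 FPKM, beside 529 FPKM in visceral endoderm. Krt19, an epithelial keratin, had 59.0 and 0.262 FPKM, beside 68.9 FPKM in visceral endoderm. AU018091 had 82.0 FPKM in extraembryonic ectoderm and 0.274 FPKM in epiblast.

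At the other end, Slc7a3, a transporter of cationic amino acids encoded on the X chromosome, had 3.41 FPKM in extraembryonic ectoderm and 209 FPKM in epiblast, the most negative ratio of all (-5.57). Crabp2, which carries retinoic acid inside cells, had 0.846 and 46.5 FPKM, and Uchl1, a ubiquitin hydrolase, had 2.64 and 86.3 FPKM. The growth factor genes Fgf4 (0.307 and 19.8 FPKM) and Fgf15 (1.59 and 30.9 FPKM) were among the 15 lowest ratios. So were Pim2, a kinase gene on the X chromosome (38.8 FPKM in extraembryonic ectoderm and 426 FPKM in epiblast), Ifitm2, a membrane protein gene (28.7 and 335 FPKM), and the glutathione transferase gene Gsta4 (15.3 and 209 FPKM). Lower ratios were also held by Car14, Enpp3, Itm2a, Sall2, Pla2g1b, Pla2g10 and Rasgrp2. For these 15 genes the extraembryonic ectoderm level was between 1.41% and 9.11% of the epiblast level.

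Promoter sequences of genes from both ends are shown because they carry motifs of the factors that define each tissue: TFAP2 (GCCNNNGGC), the motif family of Tfap2c, and the octamer (ATGCAAAT), the motif of the pluripotency factor encoded by Pou5f1. Each sequence is the 300 bases from upstream of the first listed gene start to just past it, from RefSeq, build GRCm38.p6, printed 5′ to 3′ on the gene's strand, with matches to the motif or its reverse complement in capitals. Morc4 and Gjb5 were higher in extraembryonic ectoderm, and Pim2 and Pipox (0.366 FPKM in extraembryonic ectoderm and 12.7 FPKM in epiblast) were lower. These were chosen after the matches were known.
Morc4 (chrX:139871605-139871904, minus strand): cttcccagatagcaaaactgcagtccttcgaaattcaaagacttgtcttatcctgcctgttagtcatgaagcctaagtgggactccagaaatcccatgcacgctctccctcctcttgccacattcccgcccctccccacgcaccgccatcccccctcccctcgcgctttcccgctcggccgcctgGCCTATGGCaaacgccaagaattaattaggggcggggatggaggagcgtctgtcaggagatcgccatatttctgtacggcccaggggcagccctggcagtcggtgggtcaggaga
Gjb5 (chr4:127358115-127358414, minus strand): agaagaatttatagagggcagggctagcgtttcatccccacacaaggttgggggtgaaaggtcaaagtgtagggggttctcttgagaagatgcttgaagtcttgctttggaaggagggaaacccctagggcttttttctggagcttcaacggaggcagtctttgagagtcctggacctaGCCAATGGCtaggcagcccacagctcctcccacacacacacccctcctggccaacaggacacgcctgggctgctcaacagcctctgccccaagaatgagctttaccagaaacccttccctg
Pim2 (chrX:7878056-7878355, plus strand): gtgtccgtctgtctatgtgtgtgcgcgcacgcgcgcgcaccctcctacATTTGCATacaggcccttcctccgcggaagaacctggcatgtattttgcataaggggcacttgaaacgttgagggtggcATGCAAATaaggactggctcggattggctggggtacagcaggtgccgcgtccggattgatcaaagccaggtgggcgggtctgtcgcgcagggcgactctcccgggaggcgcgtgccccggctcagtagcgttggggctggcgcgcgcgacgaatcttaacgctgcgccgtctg
Pipox (chr11:77893823-77894122, minus strand): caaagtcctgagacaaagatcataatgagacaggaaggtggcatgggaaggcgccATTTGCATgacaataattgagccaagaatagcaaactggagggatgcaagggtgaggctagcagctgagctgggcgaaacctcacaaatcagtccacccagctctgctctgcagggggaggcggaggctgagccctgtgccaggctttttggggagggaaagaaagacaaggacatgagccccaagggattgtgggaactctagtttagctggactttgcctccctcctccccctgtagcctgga
Gjb5 and Pipox have 3 CpG dinucleotides each in this window, Morc4 has 16 and Pim2 has 31, with 2 octamers in Pim2.

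A promoter was found for 5035 of the 6200 genes, 795 of the higher and 323 of the lower. The octamer, searched on both strands, was in 1.38% of the higher promoters, 3.10% of the lower, 1.29% of all 5035 and 1.75% of the 27025 promoters in the reference. The TFAP2 motif was in 25.4% of the higher promoters and 23.5% of the lower, against 24.7% of all 5035. It was thus about as frequent in both classes. Of the 7 motifs searched, the widest gap was in the ETS motif CCGGAAGT, which was in 6.42% of the higher promoters and 3.41% of the lower, against 12.4% of the promoters of genes between them. Promoters with 5 or fewer CpG made up 6.42% of the higher, 8.67% of the lower and 3.99% of all 5035. Both called classes thus held fewer ETS motifs and more CpG-poor promoters than the genes between. Over all 27025 reference promoters the TFAP2 motif was in 16.5%, the ETS motif in 4.0% and 5 or fewer CpG in 43.6%. The TEAD motif, searched as GGAATG, was in 12.7% of the higher promoters, 14.6% of the lower and 10.7% of all 5035, and the E-box, searched as CACGTG, was in 11.3%, 10.8% and 11.8% of them. The T-box motif, searched as AGGTGTGA, was in 0.629% of the higher, 0.929% of the lower and 0.655% of all 5035. The GATA family motif, searched as AGATAA, was in 5.66% of the higher, 6.19% of the lower and 5.72% of all 5035. Over the 27025 reference promoters, the TEAD motif was in 14.6%, the E-box in 7.24%, the T-box motif in 1.27% and the GATA family motif in 11.4%. Each motif was searched on its own and on both strands, matches of different motifs can share letters, and a match is not a binding site.

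The labels were checked against marker lists, first transcription factors of the extraembryonic ectoderm and trophoblast. All 20 listed factors had an entry, and 8 of them met the minimum and were above 0 in both tissues. These 8 were all at least 2-fold higher (median log2 ratio 3.82, against 0.25 over all 6200 genes). However, 6 of the 8 reached 5 FPKM in extraembryonic ectoderm only. After Id2, the most abundant of these 8 was the T-box factor Eomes, which is needed for trophoblast stem cells, with 61.0 FPKM in extraembryonic ectoderm and 9.28 FPKM in epiblast. Its ratio was the smallest of the 8 (2.59). Eomes also stood at 59.2 FPKM in visceral endoderm. Nr0b1, an X-linked nuclear receptor gene, had 41.9 and 1.40 FPKM, and Ascl2, an imprinted bHLH factor of the trophoblast, had 30.6 and 1.32 FPKM. Klf5 had 25.6 and 0.329 FPKM, Ets2, which sustains trophoblast stem cells, had 25.3 and 2.98 FPKM, and Tead4, the partner of Yap1 in trophectoderm, had 13.9 and 0.0226 FPKM.

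A further 10 of the 20 were listed at 0 in epiblast. Their levels in extraembryonic ectoderm were 124 FPKM for Elf5, which reinforces the trophoblast fate, 81.4 FPKM for Zfp42, 66.6 FPKM for Tfap2c and 45.5 FPKM for Hand1, a factor of trophoblast giant cells. Gata3 had 18.2 FPKM, Esrrb 13.6 FPKM, Cdx2 11.8 FPKM, Msx2 8.33 FPKM, Sox21 7.57 FPKM and Gata2 5.88 FPKM. Zfp42 was listed at 0 in visceral endoderm, trophectoderm and inner cell mass as well, while the other 9 were above 0 in at least 1 of these. Tfap2a and Dlx3 stayed under 5 FPKM. Of 20 genes of differentiated trophoblast, 9 were listed at 0 in both tissues, which does not show that they were silent, and 6 stayed under 5 FPKM. Those at 5 FPKM or more were Phlda2, an imprinted gene that restrains placental growth (383 FPKM in extraembryonic ectoderm and 23.0 FPKM in epiblast), Ascl2, and, listed at 0 in epiblast, Hand1, Plac1 (7.84 FPKM in extraembryonic ectoderm) and Peg10 (8.19 FPKM). Of 16 secreted factors, receptors and surface proteins listed for extraembryonic ectoderm, 10 were members. Of these, 7 were higher and 1, Tdh, was lower (log2 ratio -1.43), against 16.2% and 6.53% of all 6200 genes. Spint1 (0.77) and Spint2 (0.02) were under 2-fold. However, 7 of the 10 reached 5 FPKM in extraembryonic ectoderm only. Of the 2 at 5 FPKM or more in both tissues, none was higher.

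**Figure D2:**
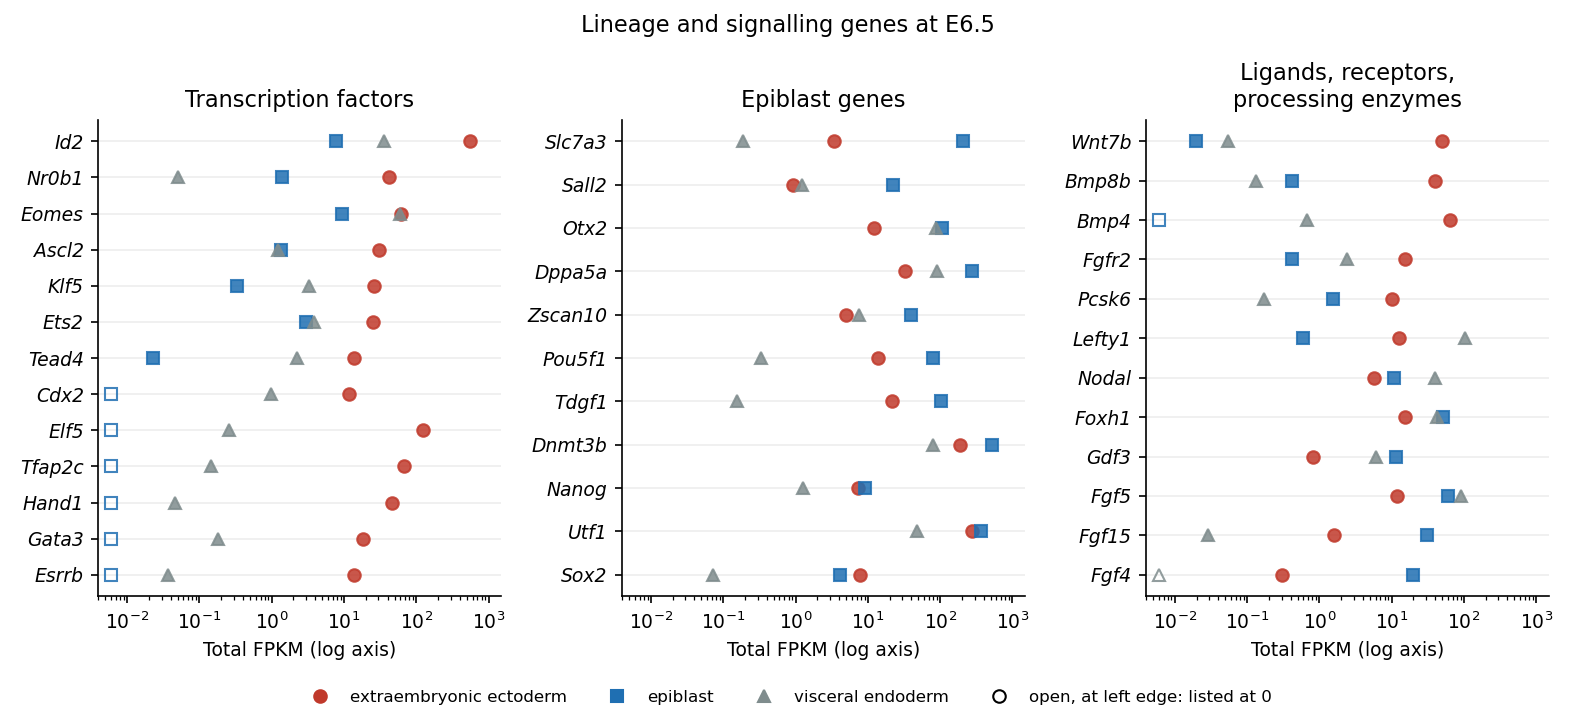
Total FPKM (log axis) in extraembryonic ectoderm (red circles), epiblast (blue squares) and visceral endoderm (grey triangles) for transcription factors, epiblast genes and signalling genes; open symbols at the left edge are listed at 0. The factors in the left panel sit to the right in extraembryonic ectoderm, while Nanog, Utf1 and Sox2 lie close together in both tissues.

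In the Fgf pathway, 3 of the 15 members were higher and 4 lower, against 16.2% and 6.53% of all 6200 genes. The ligands Fgf4, Fgf15 and Fgf5 (11.8 FPKM in extraembryonic ectoderm and 60.8 FPKM in epiblast) were lower in extraembryonic ectoderm, whereas the ligand Fgf8 was under 2-fold, at 18.2 and 9.28 FPKM. The receptor Fgfr2, which receives Fgf4 in trophoblast, had 15.5 and 0.419 FPKM (log2 ratio 3.54). Fgfr4 had 5.31 and 0.0306 FPKM, and the adaptor Frs2, which couples the receptors to Ras, had 7.98 and 2.52 FPKM. Fgfr1, by contrast, differed by less than 2-fold, at 11.3 FPKM in extraembryonic ectoderm and 7.77 FPKM in epiblast. Targets and inhibitors downstream of Erk were close to even: Dusp6 had 73.7 and 46.1 FPKM, Spry4 9.14 and 6.68 FPKM and Spry1 10.7 and 8.30 FPKM. Etv5, a target factor, was lower, at 20.3 and 43.7 FPKM. The median log2 ratio of the list was 0.49. At a minimum of 20 FPKM, with fewer genes left, it was -1.07.

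In the Nodal pathway, 5 of 12 members were higher and 4 lower, against 16.2% and 6.53% of all 6200 genes, and 6 of the 12 reached 5 FPKM in extraembryonic ectoderm only. Nodal itself was at 5.79 FPKM in extraembryonic ectoderm and 10.7 FPKM in epiblast, short of 2-fold. Its relative Gdf3 had 0.814 and 11.5 FPKM, its coreceptor Tdgf1 had 21.3 and 104 FPKM, and Foxh1, which carries Smad2 to target genes, had 15.4 and 52.1 FPKM. These 3 were lower in extraembryonic ectoderm, as was Smad4, at 10.1 and 21.2 FPKM. The convertase Pcsk6, which cuts the Nodal precursor, was higher, at 10.2 and 1.54 FPKM, while its partner Furin stayed at 1.21 FPKM in extraembryonic ectoderm and was listed at 0 in epiblast. Smad3 (6.37 and 1.26 FPKM) and the inhibitor Smad7 (9.57 and 3.88 FPKM) were higher, but Smad7 was under 2-fold after centring on the median. The antagonist Lefty1 had 12.7 FPKM in extraembryonic ectoderm and 0.588 FPKM in epiblast, and the coreceptor gene Cfc1 had 5.08 and 1.23 FPKM. Lefty1 had 102 FPKM in visceral endoderm, whose anterior part it marks, and Cfc1 had 28.9 FPKM there. With a visceral endoderm share subtracted, as described with the markers of that tissue, Cfc1 was no longer 2-fold higher (0.59) and Nodal, at 39.4 FPKM in visceral endoderm, was lower (-1.92).

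The Bmp ligands of the extraembryonic ectoderm were present at high level. Bmp4, which induces germ cells and mesoderm in the epiblast, had 64.0 FPKM in extraembryonic ectoderm and was listed at 0 in epiblast. Bmp8b, which acts with it, had 40.4 and 0.423 FPKM (log2 ratio 4.86), and its neighbour Bmp8a had 4.69 and 0.0696 FPKM. The Bmp targets did not share 1 direction. Id1 had 51.6 FPKM in extraembryonic ectoderm and 7.0 FPKM in epiblast, and Id2 was higher still. Id3 was lower, at 28.0 FPKM in extraembryonic ectoderm and 289 FPKM in epiblast (log2 ratio -3.32). The receptor Bmpr1a (6.57 and 9.31 FPKM) and the mediator Smad1 (5.84 and 4.78 FPKM) differed by less than 2-fold.

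For Wnt signalling, the ligand Wnt7b was higher in extraembryonic ectoderm, and the ligand Wnt6 had 19.4 FPKM there and was listed at 0 in epiblast, so it has no ratio. The receptors Fzd2 (0.729 and 8.48 FPKM) and Fzd7 (5.19 and 12.1 FPKM) and the mediator Lef1 (1.96 and 8.04 FPKM) were lower in extraembryonic ectoderm. Ctnnb1, which encodes beta-catenin, was near even, at 119 and 92.5 FPKM. Sfrp1, a Wnt inhibitor, had 5.52 and 2.05 FPKM but 46.8 FPKM in visceral endoderm. Its ratio changed sign when a visceral endoderm share was subtracted, as described with the markers of that tissue. Of the 9 members, 2 were higher and 3 lower, against 16.2% and 6.53% of all 6200 genes. Of the 29 listed genes, 17 stayed under 5 FPKM in both tissues. The median log2 ratio of the list was -0.35. At a minimum of 20 FPKM only Wnt7b (5.62) and Ctnnb1 (0.36) were left, with a median of 2.99.

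The pluripotency genes of the epiblast did not share 1 direction. Of 18 members, 8 were lower in extraembryonic ectoderm and 1 was higher, against 6.53% and 16.2% of all 6200 genes. Their median log2 ratio was -0.51. The lower ones were Slc7a3, Sall2, Otx2, Dppa5a, Zscan10, Pou5f1, Tdgf1 and Dnmt3b. Pou5f1, which encodes Oct4, had 14.0 FPKM in extraembryonic ectoderm and 79.4 FPKM in epiblast. Otx2, a factor of the post-implantation epiblast, had 12.1 and 106 FPKM, and Sall2 had 0.937 and 22.6 FPKM. Pou5f1 was near absent from visceral endoderm (0.334 FPKM), while Otx2 reached 87.5 FPKM there.

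Other genes widely used as pluripotency markers did not separate the tissues. Utf1 had 276 FPKM in extraembryonic ectoderm and 369 FPKM in epiblast, Nanog had 7.35 and 9.01 FPKM, and Sall4 had 46.7 and 52.9 FPKM. Sox2, which trophoblast progenitors also express, had 7.82 and 4.14 FPKM, and Dppa4 had 86.5 and 62.4 FPKM. Among naive pluripotency genes, 7 of 13 stayed under 5 FPKM in both tissues. Dppa3 had 0.668 FPKM in extraembryonic ectoderm and 6.17 FPKM in epiblast.

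The DNA methylation machinery differed member by member. The methyltransferase genes Dnmt3a (4.18 FPKM in extraembryonic ectoderm and 46.2 FPKM in epiblast) and Dnmt3b (191 and 517 FPKM) were lower in extraembryonic ectoderm. Their cofactor Dnmt3l, which has no catalytic activity, was higher, at 35.6 and 12.2 FPKM. Tet1, which oxidises methylated cytosine, had 2.61 and 7.78 FPKM, and the silencing factor Trim28 had 101 and 221 FPKM. The maintenance enzyme Dnmt1 (15.5 and 9.93 FPKM) and its guide Uhrf1 (64.0 and 33.2 FPKM) were under 2-fold. Of 20 germline genes whose promoters are known to be methylated in the embryo, 14 stayed under 5 FPKM. Of the 5 members 1 was higher and 3 lower, against 16.2% and 6.53% of all 6200 genes. Their median log2 ratio was -1.12, but 3 of the 5 reached 5 FPKM in epiblast only. Of the 2 at 5 FPKM or more in both tissues, 1 was higher and none lower. The higher one was Tex19.1, at 237 FPKM in extraembryonic ectoderm and 8.15 FPKM in epiblast. Among the lower was Sycp3, a gene of the meiotic chromosome axis, at 2.77 and 28.5 FPKM.

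Several genes of the primitive streak, the site in the epiblast where mesoderm forms, were higher in extraembryonic ectoderm than in this epiblast sample. Of 7 members 5 were higher and none was lower, against 16.2% and 6.53% of all 6200 genes. Of the 7, 4 reached 5 FPKM in extraembryonic ectoderm only. Of the 3 at 5 FPKM or more in both tissues, 1 was higher, Eomes, which is also a trophoblast factor. Among all 4720 genes at that level, 368 were higher. T, the brachyury gene, had 9.86 FPKM in extraembryonic ectoderm and 0.196 FPKM in epiblast, beside 0.772 FPKM in visceral endoderm. Mixl1 had 43.0 FPKM in extraembryonic ectoderm and was listed at 0 in epiblast, beside 107 FPKM in visceral endoderm. Snai1, which drives the transition of epiblast to mesoderm, had 24.1 and 2.40 FPKM, and Gsc had 6.09 and 0.451 FPKM. Eomes and Cyp26a1 are given above. Fgf8 (18.2 and 9.28 FPKM) and Nodal were under 2-fold. Gsc had 43.0 FPKM in visceral endoderm. With a visceral endoderm share subtracted, as described with the markers of that tissue, its ratio of 2.29 became 1.07 and Nodal was lower (-1.92). Mesp1 and Tbx6 were listed at 0 in both tissues.

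Markers of the visceral endoderm were present in the extraembryonic ectoderm at a near constant share. All 22 markers reached 5 FPKM in visceral endoderm, and their level in extraembryonic ectoderm was a median of 9.41% of that in visceral endoderm. For 20 of the 22 it lay between 6.04% and 12.8%. The exceptions were Apoe, at 19%, and the X-linked gene Cited1, at 34.8%. In epiblast the median was 0.129%, 7 of the 22 were listed at 0, and the highest, Lrp2, stood at 32.7%. In absolute terms Spink3, given above, led in extraembryonic ectoderm. Apoe, the 1 marker at 5 FPKM or more in both tissues among the members, had a log2 ratio of 2.19. Of other secreted proteins, Apoa1 had 109 FPKM in extraembryonic ectoderm and 1.67 FPKM in epiblast, Ttr had 65.4 and 0.552 FPKM, and Afp had 40.5 and 0.465 FPKM. All 9 markers that were members were higher in extraembryonic ectoderm, and 8 of them reached 5 FPKM in that tissue only of the pair; the sum over all 22 markers was 1667 FPKM in extraembryonic ectoderm and 78.7 FPKM in epiblast, beside 15332 FPKM in visceral endoderm.

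**Figure D3:**
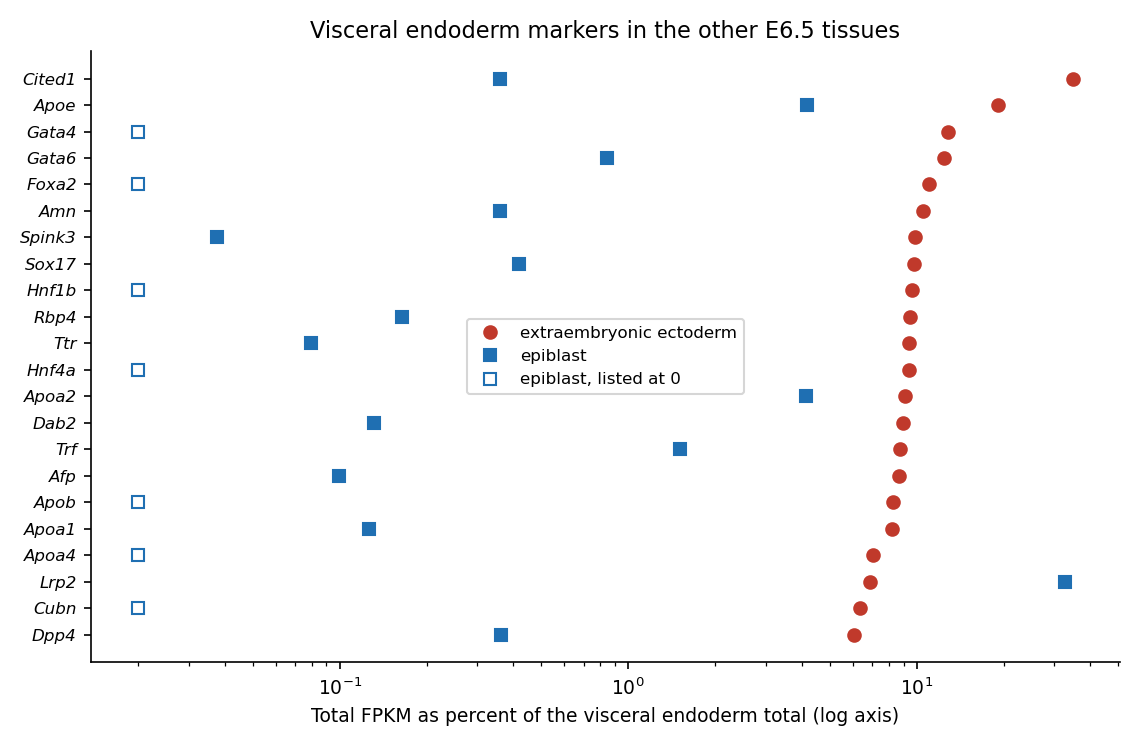
Level of 22 visceral endoderm markers in extraembryonic ectoderm (red circles) and epiblast (blue squares; open where listed at 0), as a percent of the level in visceral endoderm on a log axis. The red circles line up between 6.04% and 12.8% except for Apoe and Cited1, while most epiblast values scatter over lower shares and Lrp2 reaches 32.7%.

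The source of these values was not tested. Of the 1003 higher genes, 220 (21.9%) had more transcript in visceral endoderm than in extraembryonic ectoderm, and 23 had at least 5 times more. Subtracting 9.41% of the visceral endoderm level from every gene, an alternative chosen after the data had been seen, left 843 of the 1003 genes at least 2-fold higher and raised the number of lower genes to 502; 12 of the 1003 then had a negative ratio. All 15 genes with the largest ratios stayed at least 2-fold higher, Spink3 with a ratio of 3.22 and Cyp26a1 with 6.80. T, Wnt7b, Fgfr2 and Bmp8b had at most 2.40 FPKM in visceral endoderm. No marker of the maternal decidua reached 5 FPKM in either tissue, though 7 of the 15 were listed at 0 in both and may not have been measurable, and the sum of the 15 was 2.67 FPKM in extraembryonic ectoderm and 2.63 FPKM in epiblast. Of 14 blood and endothelial markers, 7 were listed at 0 in both tissues, and Gata1 alone passed, at 10.9 FPKM in extraembryonic ectoderm and 0.227 FPKM in epiblast. The ribosomal RNA precursor Rn45s made up 2.61% of the summed FPKM in extraembryonic ectoderm and was listed at 0 in epiblast, and its part in the other values was not tested.

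Of 19 epithelial members 12 were higher and 1 lower (median log2 ratio 1.95), but 10 of the 19 reached 5 FPKM in extraembryonic ectoderm only. Of the 8 at 5 FPKM or more in both tissues, 3 were higher, against 368 of the 4720 genes at that level. Among the claudins, which seal tight junctions, Cldn3 had 76.5 FPKM in extraembryonic ectoderm and 2.12 FPKM in epiblast, and Cldn4 had 56.3 and 4.73 FPKM, but Cldn6 (271 and 233 FPKM) and Cldn7 (63.2 and 47.7 FPKM) were nearly even. The keratin pair Krt8 (149 and 12.9 FPKM) and Krt18 (279 and 69.0 FPKM) was higher. Of the cadherins, Cdh1 had 70.5 and 29.5 FPKM and Cdh3, the placental cadherin, had 5.37 and 0.569 FPKM. The splicing factor of epithelia Esrp2 was higher, at 10.7 and 0.550 FPKM, while its relative Esrp1 was not, at 11.5 and 19 FPKM. Itga6, a laminin receptor subunit, was the lower one, at 1.65 and 7.12 FPKM. The keratins are also visceral endoderm genes (Krt8 287 FPKM and Krt18 316 FPKM there), whereas Cldn3 and Cldn4 were at 0.411 and 0.111 FPKM in that tissue.

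Some gene families picked after their values were seen showed the same direction in most members. Over all 6200 genes, 16.2% were higher and 6.53% lower. All 5 S100 genes that were members, which encode small calcium-binding proteins, were higher. S100a10 had 318 FPKM in extraembryonic ectoderm and 33.4 FPKM in epiblast, and S100a6 had 59.5 and 0.692 FPKM. Anxa2, the annexin that binds S100a10 at the membrane, had 49.5 FPKM in extraembryonic ectoderm and 2.06 FPKM in epiblast, and 5 of 7 annexin genes were higher, led by Anxa5 (117 and 1.99 FPKM). Gap junction genes went both ways: Gjb5 was higher, while Gja1 (16.1 and 81.7 FPKM) and Gjc1 (0.522 and 5.14 FPKM) were lower. Retinoid genes went both ways as well, with the clearing enzyme Cyp26a1 higher and the retinoic acid binders Crabp1 (1.08 and 12.6 FPKM) and Crabp2 lower in extraembryonic ectoderm. The retinol carrier Rbp4 was higher, but it is one of the visceral endoderm markers, and its ratio of 4.27 became -0.40 with the visceral endoderm share subtracted. Of the glutathione transferases, Gsto1 had 606 FPKM in extraembryonic ectoderm and 54.9 FPKM in epiblast, while Gsta4, Gstt1, Gstt2 and Gstm1 were lower.

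Hippo pathway genes, which link cell shape and position to the trophoblast programme, included 8 higher and no lower among 12 members (median log2 ratio 1.32). Over all 6200 genes, 16.2% were higher and 6.53% lower. Of the 12, 7 reached 5 FPKM in extraembryonic ectoderm only. Of the 5 at 5 FPKM or more in both tissues, 1 was higher, against 368 of the 4720 genes at that level. The coactivator Wwtr1 had 7.51 FPKM in extraembryonic ectoderm and 1.06 FPKM in epiblast, while its relative Yap1 was even, at 6.57 and 5.73 FPKM. The Yap target Cyr61 had 40.7 and 1.32 FPKM, and another target, Ctgf, stayed at 2.51 and 1.33 FPKM. Amot, an X-linked scaffold that holds Yap outside the nucleus, had 32.1 and 1.05 FPKM, beside 338 FPKM in visceral endoderm. With the visceral endoderm share subtracted its ratio of 4.01 became -0.71, and 6 of the 12 members were higher. Immediate early and stress genes had 5 of 7 members higher (median log2 ratio 1.89), but 5 of the 7 reached 5 FPKM in extraembryonic ectoderm only. Among the higher were Fos (11.6 and 0.0334 FPKM), Gadd45b (23.8 and 0.391 FPKM) and Klf6 (18.5 and 4.28 FPKM).

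Housekeeping groups stayed near the median of all 6200 genes, of which 16.2% were higher and 6.53% lower. Mitotic and replication genes had 2 of 24 members higher and 1 lower, with a median log2 ratio of 0.24. One exception was the cell cycle inhibitor gene Cdkn1c, which was higher (log2 ratio 1.13). The others were D-type cyclins, which start the cell cycle: Ccnd1 had 4.75 FPKM in extraembryonic ectoderm and 31.0 FPKM in epiblast, and Ccnd3 had 132 and 38.4 FPKM. Genes of serine, glycine and one-carbon metabolism had none of 18 members higher and 1 lower, the threonine dehydrogenase gene Tdh (2.26 and 7.76 FPKM). Glycolysis genes had a median of 0.18 over 20 members, but 6 were higher and 1 lower. The first enzyme differed by form: Hk1 had 14.6 and 1.12 FPKM while Hk2 had 11.1 and 13.5 FPKM. Pfkp (42.3 and 4.94 FPKM) and the transporters Slc2a3 (104 and 21.1 FPKM) and Slc16a1 (115 and 26.1 FPKM) were higher, and Ldhb was lower (38.6 and 107 FPKM). Slc2a3 and Slc16a1 were at 397 and 372 FPKM in visceral endoderm. The most abundant enzymes were even: Pkm had 1027 FPKM in extraembryonic ectoderm and 1076 FPKM in epiblast.

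**Figure D4:**
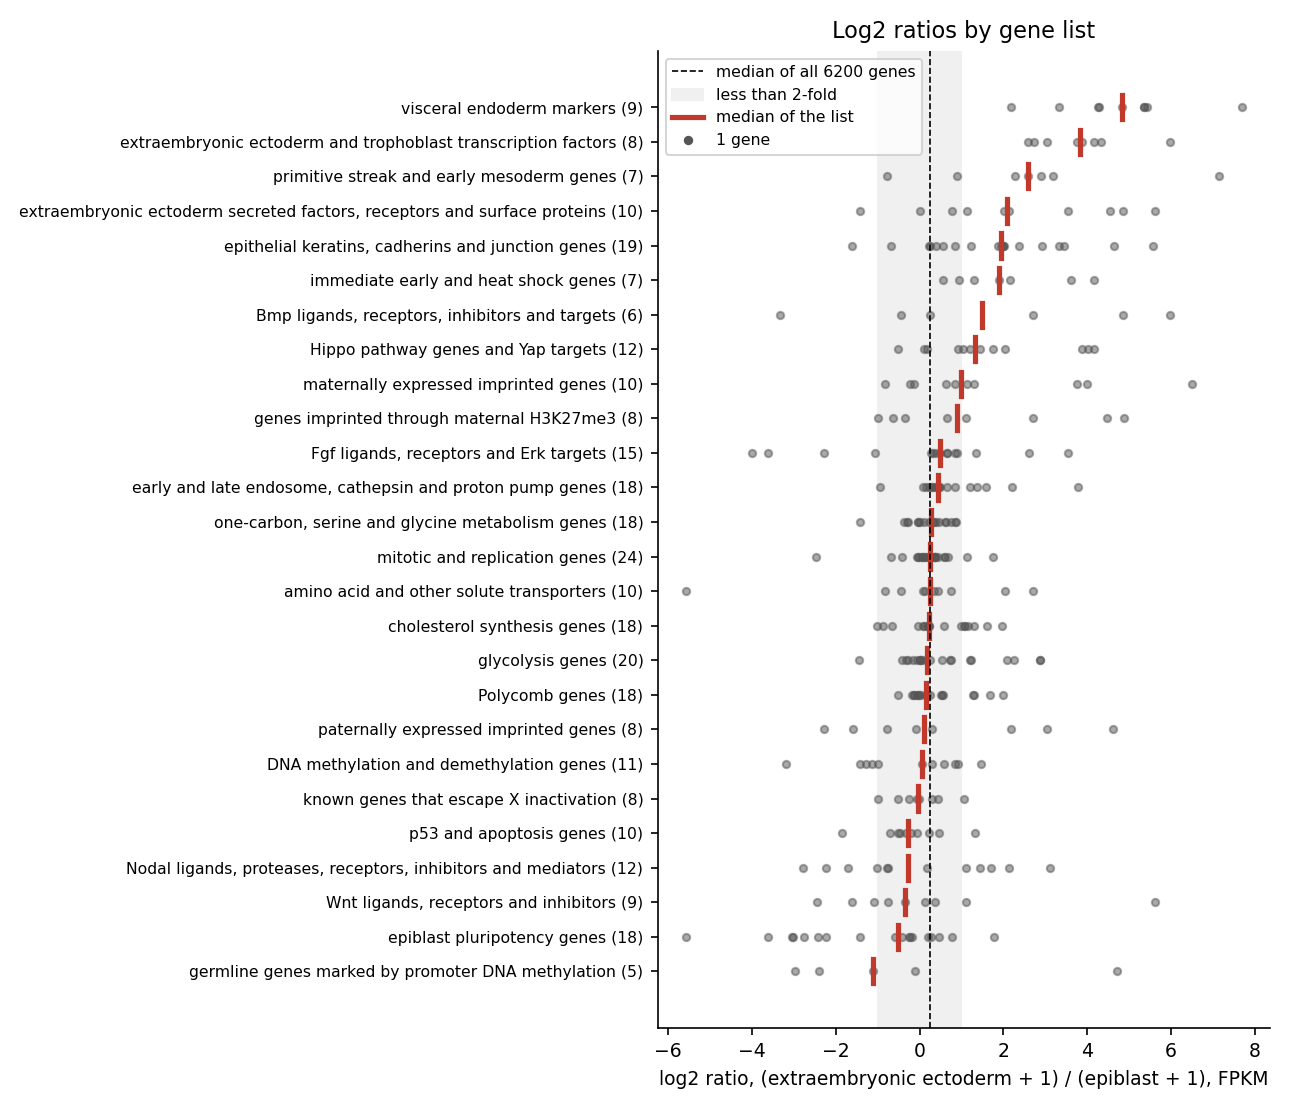
Log2 ratio of extraembryonic ectoderm to epiblast for the members of 26 gene lists with at least 5 members (1 point per gene), ordered by their median (red bar); the dashed line is the median of all 6200 genes and the grey band marks less than 2-fold. Visceral endoderm markers and extraembryonic transcription factors lie at the top, and metabolic and mitotic lists cluster on the dashed line.

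Of 18 Polycomb members, 4 were higher and none lower, against 16.2% and 6.53% of all 6200 genes. The core subunits of PRC2 were within 2-fold: Eed had 47.0 FPKM in extraembryonic ectoderm and 49.0 FPKM in epiblast, and Ezh2 had 36.8 and 37.2 FPKM. The higher ones were Bmi1 (5.92 and 0.744 FPKM), Pcgf3, Pcgf5 (24.7 and 7.07 FPKM) and the X-linked histone-binding gene Rbbp7 (286 and 118 FPKM). Cholesterol synthesis genes had 6 of 18 members higher and 1 lower, the isomerase gene Idi1 (24.5 and 50.6 FPKM), and genes of endosomes, cathepsins and the proton pump had 5 of 18 higher and none lower, with 4 of the 18 at 5 FPKM in extraembryonic ectoderm only. The cathepsin gene Ctsh led these, with a log2 ratio of 3.78, which became 1.11 with the visceral endoderm share subtracted (188 FPKM in that tissue).

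Imprinted genes were resolved by allele, giving the paternal share of each gene's FPKM, which the choice of genes did not use. For maternally expressed imprinted genes this share had a median of 2.72% in extraembryonic ectoderm (11 genes at 5 FPKM or more) and 34.7% in epiblast (6 genes). These medians cover different genes, since a gene under 5 FPKM in a tissue is left out there. Ascl2 and Cdkn1c, for example, are not in the epiblast median. In level, 5 of the 10 members were higher and none lower, against 16.2% and 6.53% of all 6200 genes. Of the 10, 4 reached 5 FPKM in extraembryonic ectoderm only. Of the 6 at 5 FPKM or more in both tissues, 2 were higher. With the visceral endoderm share subtracted, 4 of the 10 were higher, Grb10 no longer, and 1, Gnas, was lower (-1.14). Phlda2 had a paternal share of 1.21% in extraembryonic ectoderm and was listed with 0% in epiblast. Ascl2 had 0.447% in extraembryonic ectoderm and 38.5% in epiblast, where it was at 1.32 FPKM, and Tssc4 had 6.98% at 11.1 FPKM in extraembryonic ectoderm and 54.8% at 12.3 FPKM in epiblast. The cell cycle inhibitor gene Cdkn1c had 0.350% and 17.6%, at 11.3 FPKM in extraembryonic ectoderm and 4.60 FPKM in epiblast.

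Genes imprinted through maternal H3K27me3, a mark left by the oocyte, are known to keep imprinted expression mainly in extraembryonic tissue. Their paternal share had a median of 89.8% in extraembryonic ectoderm (7 genes) and 57.1% in epiblast (4 genes). These medians again cover different genes, and Sfmbt2 and Gab1, under 5 FPKM in epiblast, are not in the epiblast median. In extraembryonic ectoderm 4 of the 7 were at 80% or more, among them the X-linked Xist at 89.8%, and the lowest stood at 35.6%. The Polycomb-related gene Sfmbt2 had 29.1 FPKM in extraembryonic ectoderm, 99.5% of it paternal, and 0.0281 FPKM in epiblast. Gab1, an adaptor needed in the placenta, had 36.6 FPKM with 97.4% paternal in extraembryonic ectoderm and 0.697 FPKM with 36.8% paternal in epiblast. The amino acid transporter gene Slc38a4 had 52.3 FPKM with 96.5% paternal and 7.13 FPKM with 74.3% paternal. For these 3 genes the higher level went with a nearly full paternal share. Classical paternally expressed genes had median shares of 94.7% in extraembryonic ectoderm (7 genes) and 95.9% in epiblast (5 genes). In extraembryonic ectoderm 6 of the 7 were at 80% or more. The exception was Snrpn, whose 61.2 FPKM were listed as 0% paternal and which was listed at 0 in epiblast and visceral endoderm. In epiblast 3 of the 5 were at 80% or more, and Inpp5f and Ndn stood at 78.8% and 76.9%. Their levels split, with Igf2 (26.0 and 0.107 FPKM) and Peg3 (27.3 and 2.46 FPKM) higher and Ndn (2.32 and 15.2 FPKM) and Nnat (1.37 and 6.05 FPKM) lower.

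Single shares need care, because some genes were listed on 1 allele in both tissues. Of 4559 autosomal genes at 5 FPKM or more in both, 18 had a paternal share of 10% or less in both tissues and 11 had 90% or more. The mitotic kinase gene Plk1 was listed as 100% paternal in both, and Pou5f1 as 0% paternal in extraembryonic ectoderm and 0.344% in epiblast. Over the autosomes the median share was 49.0% in extraembryonic ectoderm and 49.1% in epiblast. On the autosomes, both alleles were then set side by side. Of 942 autosomal higher genes, 587 were at least 2-fold higher on each allele, 934 had the same sign on both and none was 2-fold opposite. Of 370 autosomal lower genes, 229 were 2-fold lower on each allele, 363 had the same sign and 2 were 2-fold opposite on 1 allele.

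The X chromosome behaved differently by allele. In extraembryonic ectoderm the paternal X is inactive from the blastocyst on, whereas in the epiblast it is reactivated and inactivation then falls at random on either X. The paternal share of X-linked members had a median of 5.76% in extraembryonic ectoderm (200 genes at 5 FPKM or more) and 47.8% in epiblast (171 genes). The sum of both alleles gave a ratio close to that of the autosomes. The median log2 ratio was 0.24 over 221 X-linked genes and 0.25 over 5964 autosomal genes, a difference of -0.02. Taken alone, the maternal X was a median of 1.91-fold higher in extraembryonic ectoderm than in epiblast and the paternal X stood at 0.319-fold, against 1.19-fold for either allele of the autosomes.

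X-linked genes were called more often than autosomal ones in both directions. Of 221 X-linked genes 59 (26.7%) were higher and 34 (15.4%) lower, against 15.8% and 6.2% of autosomal genes. Their paternal shares in extraembryonic ectoderm differed by class. The median was 2.17% over the 59 higher genes, 5.93% over 122 genes between and 10.3% over the 19 lower genes that reached 5 FPKM there. On the autosomes the same classes stood at 49.1%, 49.0% and 47.9%. Among X-linked genes at 5 to 40 FPKM in extraembryonic ectoderm, where the classes overlap in level, the shares were 3.36% over 40 higher genes and 11.2% over 16 lower ones. At 20% paternal or more stood 4 of the 59 higher and 5 of the 19 lower genes. The classes overlapped, since the higher genes ran from 0% to 50.9% and the lower ones from 2.78% to 48.9%.

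The X-linked members with the highest share in extraembryonic ectoderm began with Xist, the noncoding RNA of the inactive X chromosome, at 89.8% paternal and 8.98 FPKM, against 32.0% and 18.7 FPKM in epiblast. Gm5643 followed at 73.1%, then Taf1 at 50.9%, Mid1ip1 at 48.9%, the ribosomal protein gene Rps4x at 44.8% and the glycosyltransferase gene Ogt at 41.0%. Taf1, a subunit of the general factor TFIID, had 8.85 FPKM in extraembryonic ectoderm and 3.65 FPKM in epiblast, and Ogt had 57.4 and 16.8 FPKM, so both were also in the higher class. Of the 8 members among known escape genes, which include Xist, intermediate shares were held by Eif2s3x (40.6%), Kdm5c (31.5%) and Kdm6a (25.7%). The shares of the others are not given here. The lowest shares, 0% at 5 FPKM or more, were held by genes that were themselves higher: Xlr3a (51.7 and 1.88 FPKM), Dusp9, a phosphatase of Erk needed in the placenta (18.9 and 1.93 FPKM), the homeobox gene Rhox6 (12.1 and 0.160 FPKM), Slc25a43, 3830417A13Rik and C77370. Xlr genes are near-identical copies that share reads, so the values of single members are uncertain.

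**Figure D5:**
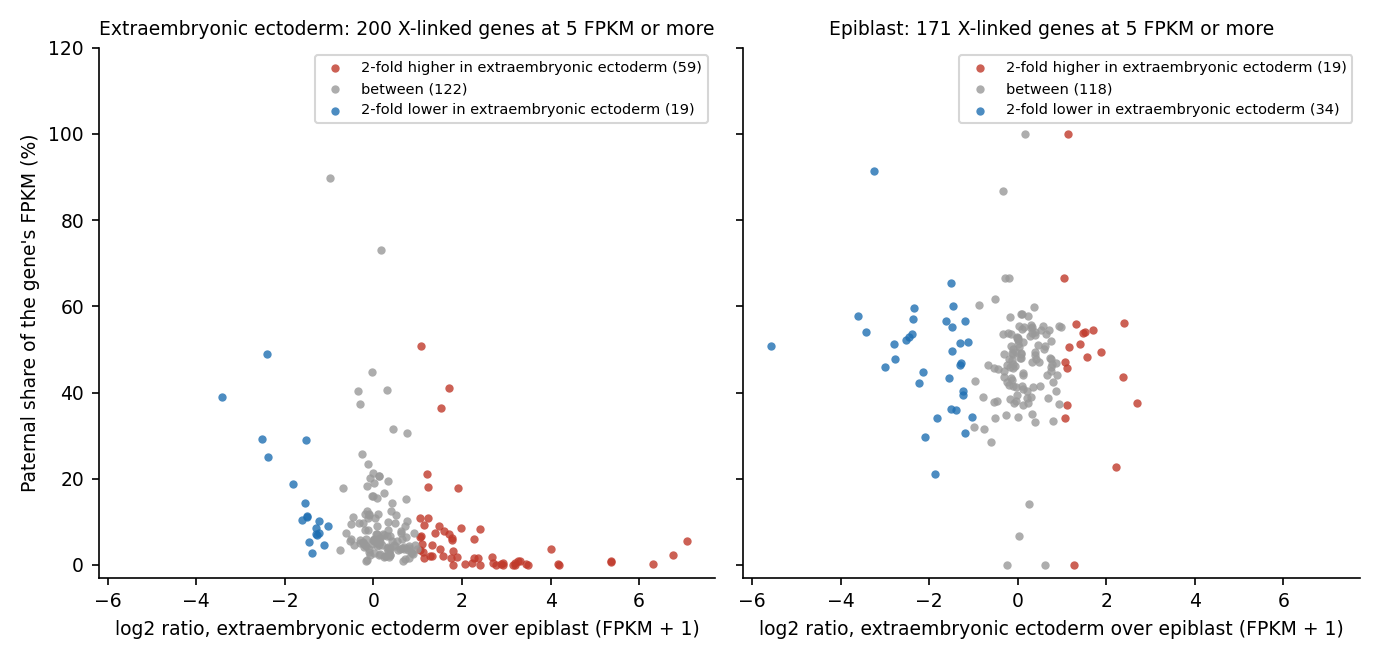
Paternal share of each X-linked gene's FPKM (vertical axis, percent) against its log2 ratio of extraembryonic ectoderm to epiblast, in extraembryonic ectoderm (left, 200 genes) and in epiblast (right, 171 genes), coloured by call. In extraembryonic ectoderm the points lie near the floor, lowest among genes with large ratios, while in epiblast they centre near 47.8%.

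The E7.5 embryos gave a further look at X-linked genes, in another genotype and a separately normalised table, so levels are not compared with E6.5. Of the 59 X-linked higher genes, 37 reached 5 FPKM in all 13 embryos and 4 in none, and the median over genes of the embryo median was 13.1 FPKM. Of the 34 lower genes, 7 reached 5 FPKM in all 13 and 12 in none, with a median of 2.1 FPKM. All 59 higher genes but only 19 of the 34 lower ones had reached 5 FPKM in extraembryonic ectoderm at E6.5. The rule that chose the classes therefore shapes these counts, and they are no separate support for the classes. Morc4 ranged over the 13 embryos from 99.9 to 226 FPKM (median 141), Trap1a from 67.6 to 182 FPKM (median 156) and Nup62cl from 40.8 to 300.3 FPKM (median 177). Slc7a3 was at a median of 0 FPKM with a highest value of 1.04 FPKM. Pim2, although in the lower class at E6.5, was at 12.8 FPKM or more in all 13.

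The blastocyst columns asked whether the same genes already differed between trophectoderm and inner cell mass, which share no sample with the E6.5 columns. Of the 6200 genes, 5285 could be measured at E3.5 by the same rule, of which 7.91% were higher in trophectoderm and 10.8% lower. Among genes higher in extraembryonic ectoderm (807 measured), 21.7% were higher in trophectoderm and 12.3% lower, with a median log2 ratio of trophectoderm to inner cell mass of 0.16. Among genes lower in extraembryonic ectoderm (196 measured), 13.3% were higher in trophectoderm and 35.2% lower, with a median of -0.50. The classes thus leaned the same way on both days, but most genes of either class were within 2-fold at E3.5.

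Single genes show how the lineages differ between the days. Id2 had 1068 FPKM in trophectoderm and 124 FPKM in inner cell mass, and Tinagl1 had 256 and 31.0 FPKM, so both leaned to the trophoblast lineage on both days. Gata3 was far more abundant in trophectoderm (292 FPKM, against 71.8 FPKM in inner cell mass) than in extraembryonic ectoderm (18.2 FPKM). Bmp4 was listed at 0 in trophectoderm and had 36.3 FPKM in inner cell mass. As it was also listed at 0 in epiblast at E6.5, no side can be given on either day. Morc4 was under 0.1 FPKM in both blastocyst tissues, and Ascl2, Phlda2 and H19 were under 3 FPKM, although all were abundant in extraembryonic ectoderm. Fgf4 was listed at 0 in trophectoderm and had 25 FPKM in inner cell mass.

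Genes called in the same direction at times followed one another along a chromosome. Among the 6185 members placed on a chromosome, 38 runs of at least 3 consecutive members were all higher and 6 were all lower, and no run passed 5 genes. Genes that were not members were skipped, so the genes of a run need not be adjacent. With 16.2% of members higher and 6.53% lower, some runs arise from any order of calls. Their number was not computed. A higher run of 5 on the X chromosome held Mum1l1, Trap1a, Rnf128, Morc4 and Nup62cl, and one on chromosome 3 held S100a1, S100a13, S100a6, S100a11 and S100a10. The imprinted stretch of chromosome 7 gave H19, Igf2 and Ascl2. A lower run on chromosome 7 held Fgf4, Fgf15 and Ccnd1, one on chromosome 6 held Phc1, Rimklb, Gdf3 and Dppa3, and one on the X chromosome held Armcx1, Armcx2, Bhlhb9, Arxes2 and Arxes1. Arxes1 and Arxes2 are close copies, and reads that match both could be split between them.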

How the data were processed

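The authors deposited FPKM values per gene in 1 maternal and 1 paternal column per group, into which its replicates had been pooled. Per the submitters' processing notes, the tools were Trim Galore 0.6.4, HISAT2 2.2.0 and StringTie 2.1.1 with the assembly mm9 (how reads were assigned to alleles: not given in the sources used here). Totals, log2 ratios on FPKM plus 1, and paternal shares (at 5 FPKM or more) were computed from these values with Python 3.11.15, numpy 2.4.6, pandas 2.3.3 and scipy 1.17.1, and drawn with matplotlib 3.10.9. 5 summary lines were left out. No counts were given, so depth and its error were unknown. RefSeq GRCm38.p6 differs from the build of the files and supplied chromosomes (for 23951 genes), neighbour order and promoters only. The rule of size was run on simulated data: epiblast totals with small noise, and 4-fold changes set in genes at 20 FPKM or more. No low genes were changed, so this checks the calculation and not how reliable the calls are. Alternatives changed the pseudocount, minimum, scaling, fold and allele.

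Members and gene lists were chosen with earlier results of these data known. Genes were named as the 15 largest ratios in each direction, members of the lists, the 6 highest and 6 lowest X-linked shares and the 3 genes on each side of the minimum; gene families, runs and printed promoters were picked after their values were seen. The values of some genes that this rule names are not reported here.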

Additional observations from a re-analysis of the deposited data

How the results depend on the processing

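The higher and lower counts moved most with the fold and the minimum. At 4-fold they were 293 and 121. At a minimum of 20 FPKM they were 371 and 163, and at 1 FPKM or with no minimum the lower count was 666, since more or fewer genes enter. The other settings stayed within 1.5 times of the counts reported. The X-linked minus autosomal difference of median log2 ratios was 0.68 for the maternal allele alone and -2.14 for the paternal allele alone. These settings chose genes anew, with a minimum of 2.5 FPKM on that allele (6186 and 5979 genes). They therefore need not match the allele medians given above. As a share of summed FPKM, the X-linked paternal share was 12.3% in extraembryonic ectoderm and 45.6% in epiblast. With the visceral endoderm share subtracted, Sfrp1 had a ratio of -0.528 and the visceral endoderm marker list a median of -0.397, the second by construction. At 20 FPKM, with fewer genes left in each, the list medians that turned were 0.868 (germline), 4.16 (naive), -1.07 (Fgf) and 2.99 (Wnt). Over 29 list medians, 245 of 289 alternative values kept their direction and side of 2-fold, 3 lost 2-fold, 10 gained it, and 31 changed sign, 26 of them under 2-fold both times. Over 76 genes, 694 of 709 did, 14 lost 2-fold and 1 changed sign. No paired analysis was possible because each tissue had 1 column per allele. For the same reason no sample could be left out.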

Other observations

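Dosage of X-linked neighbours differed within short stretches. Of 6 members of the Bex and Tceal cluster, 3 were higher and 2 lower: Ngfrap1 had 1120 FPKM in extraembryonic ectoderm and 173 FPKM in epiblast, while Bex4 had 90.5 and 215 FPKM and Tceal8 had 22.5 and 81.6 FPKM. All 5 members of the Armcx and Arxes genes were lower, led by Armcx1 (1.27 FPKM in extraembryonic ectoderm and 17.2 FPKM in epiblast). These families were chosen after their values were seen, and the values are given with no explanation. Among all 221 X-linked members, 26.7% were higher and 15.4% lower.

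Uridine phosphorylase Upp1, an enzyme of pyrimidine salvage, had 205 FPKM in extraembryonic ectoderm and 6.49 FPKM in epiblast. Ifitm3, which with Ifitm2 belongs to a family of interferon-inducible membrane proteins, had 3.63 and 42.2 FPKM, whereas Ifitm1 was under 2-fold at 16.3 and 28.2 FPKM.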
